A study of Arabidopsis thaliana with 6 samples.

Results

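Xyloglucan endotransglucosylase/hydrolases (XTH) were followed in root tips of Arabidopsis thaliana seedlings that had been given one of a pair of signalling peptides. A probe set, the group of short probes that stands for a transcript on the array, was a member when the array's annotation gave it 1 gene named XTH and a number, and when its mean signal over the 6 arrays was at least 92. Of 22746 gene probe sets, 9 carried such a name and 8 of them reached the limit, for XTH16, XTH18, XTH19, XTH20, XTH21, XTH26, XTH32 and XTH33. They were thus chosen by their name and their mean signal over all arrays, and not by the difference between the peptides. The member closest to the limit was XTH20, with a mean signal of 158, and the only XTH probe set under it was XTH29, with 26.1.

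One group received synthetic CLE25 and the other synthetic CLE10, each at 1000 nM for 12 h, with 3 arrays in each group. Both groups were wild-type Col-0, the common laboratory accession, grown for 7 days in shaken liquid MS medium, a mineral salt medium for plants, at 23 °C and in continuous light. The RNA came from the last 5 mm of the root, and the question was which genes could account for the different action of the peptides. No untreated root was analysed here, so every value sets the peptides against each other. Whether each array had a culture of its own is not in the labels, so the p-values rest on a spread between arrays that may be technical.

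Xyloglucan is a hemicellulose that coats and links cellulose microfibrils in the primary walls of growing cells. XTH enzymes cut a xyloglucan chain and join the new end either to another xyloglucan chain, the transglucosylase reaction, or to water, the hydrolase reaction. They are known to act where root cells elongate and where root hairs form. CLE peptides are short secreted signals read by receptor kinases, and CLE10 is known to block protoxylem vessel formation by way of cytokinin.

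The family has 33 loci, and 10 of them had a probe set that names 1 gene. The 23 others, among them XTH17, XTH4, XTH5 and XTH14, were not analysed here. In the TAIR10.1 gene table XTH18 and XTH19 are neighbouring genes on chromosome 4, and XTH18 also lies beside XTH24. All 8 member probe sets carry the array maker's suffix for probes designed to match a single gene. How much RNA of the related XTH17 they pick up was not tested.

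The labelled tissue could be checked on few genes. Of 12 root tip markers 3 had a probe set here, the meristem regulators BBM and JKD and the endodermal receptor kinase GSO1, and none was at 0 on any array. Their summed signal was 812 to 896 with CLE25 and 751 to 947 with CLE10, and GSO1 made up most of it. BBM ran from 77.3 to 137 with CLE25 and from 108 to 135 with CLE10, and JKD ran from 121 to 153 with CLE25 and from 79.1 to 182 with CLE10. Of 15 green tissue markers, 2 light-harvesting genes could be read, with sums of 172 to 232 with CLE25 and 159.8 to 269.9 with CLE10. Their mean signals, 106 for LHCB4.1 and 109 for LHCB4.2, were near that of BBM, 112, so signal level does not set BBM apart from them. LHCB4.1 ran from 40.2 to 129 with CLE25 and from 91.9 to 148 with CLE10. Defining markers such as PLT1, WOX5 and SCR were not analysed here. In such bulk samples fewer cells of a type and less RNA per cell cannot be told apart.

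No XTH gene passed the test between the peptides over all probe sets, and no member had groups of arrays that stood apart. The mean signal of XTH33 was 1.403 times as high with CLE25 as with CLE10 on the log scale, the largest difference among the 8 members, and XTH26 followed at 1.21 times. The root genes XTH18 and XTH19 each had a log2 fold change of -0.11. The spread among arrays of the same peptide was wide for several members, above all for the root hair gene XTH26. Each log2 fold change below is CLE25 minus CLE10 on the scale of log2(signal + 6.06), given with its standard error, and this pseudocount understates the differences of dim probe sets.

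In limma, 0 of the 8 members passed an adjusted p of 0.05, beside 0.00% of the 13648 probe sets tested. At an unadjusted p under 0.05 there were also 0 of 8 members, beside 4.21% of all probe sets. Leaving out CLE10 replicate 1 made that 1 member, XTH33, and leaving out CLE25 replicate 2 made it 2, XTH16 and XTH33. The smallest unadjusted p among the members was 0.0698, for XTH33, and the limma adjusted p was 0.999 for each member. Groups that did not overlap were seen in 0 of 8 members and in 9.18% of all probe sets. No other tool was run.

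**Figure D1:**
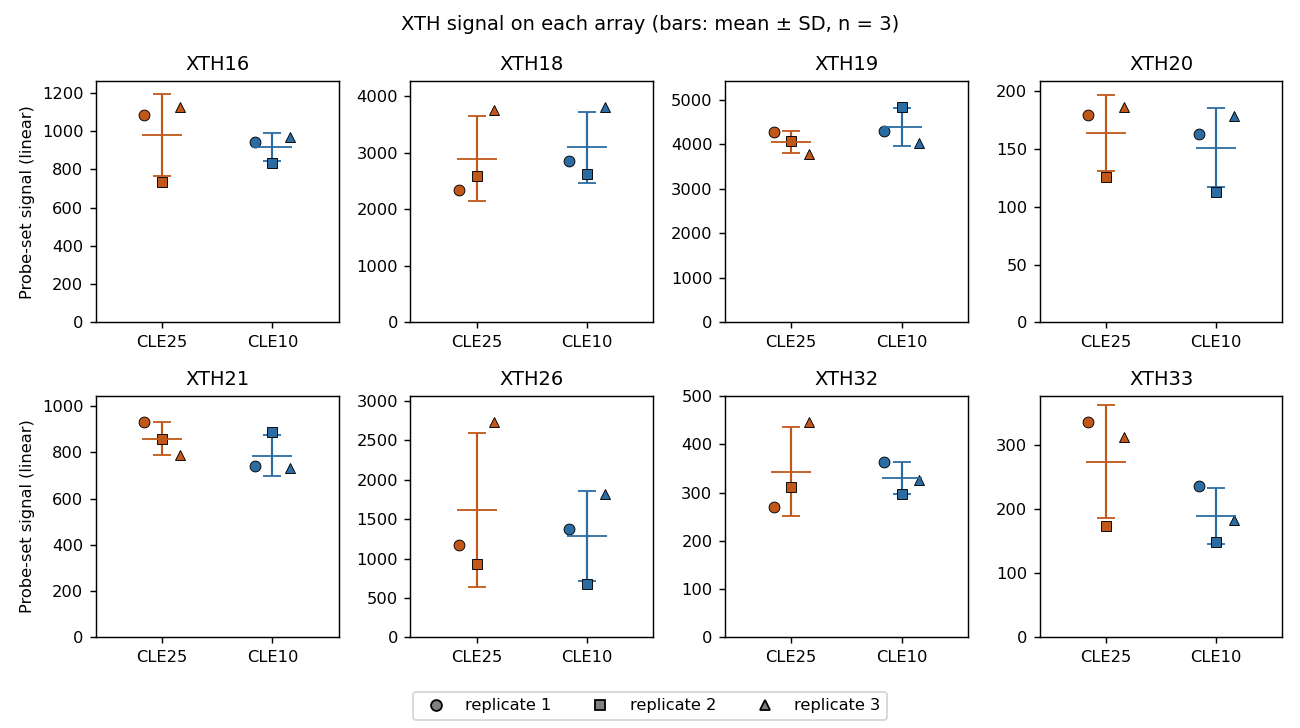
Probe-set signal on a linear scale for each XTH member, with CLE25 arrays on the left and CLE10 arrays on the right of each panel; points are single arrays, shaped by replicate number, and bars show the mean and SD of 3 arrays. The groups overlap in all 8 panels, and the points of XTH26 lie farthest apart, between 929 and 2737 with CLE25 and between 676 and 1815 with CLE10.

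XTH18, XTH19 and XTH20 belong to a close-knit group of root XTH genes. XTH18 is known to act in root elongation, XTH19 to be active from the dividing to the elongating and differentiating parts of the root, and XTH20 in the vascular tissue of more mature root. XTH18 had signals of 2351, 2585 and 3763 on CLE25 replicates 1, 2 and 3, against 2858, 2624 and 3813 on CLE10 replicates 1, 2 and 3. The arrays numbered 3 were the highest of both peptides, and the groups covered almost the same range. Its mean was 2899.8 ± 757 with CLE25 and 3099 ± 630.0 with CLE10 (SD, n = 3 each), a log2 fold change of -0.11 ± 0.18 with a 95% interval from -0.50 to 0.28. The sign turned without CLE10 replicate 3, to 0.05, and without CLE25 replicate 1, to 0.03. With all arrays kept, the CLE25 signal was below the CLE10 signal of the same number at every replicate number.

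XTH19, the neighbour of XTH18, had 4286, 4084 and 3790.4 with CLE25, against 4306, 4842 and 4022 with CLE10. Here the arrays numbered 3 were the lowest of both peptides, where those of XTH18 were the highest, and the arrays lay close together. The mean was 4054 ± 249 with CLE25 and 4390.2 ± 416 with CLE10 (SD, n = 3 each). The log2 fold change was -0.11 ± 0.10, and its 95% interval, from -0.34 to 0.11, was the narrowest of the 8 members.

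XTH20 had signals of 179.6, 126 and 186 with CLE25, against 163, 113 and 178 with CLE10. The arrays numbered 2 were the lowest of both peptides, and each numbered array of one peptide lay near the array of that number of the other. The mean was 164 ± 33.1 with CLE25 and 151 ± 34.2 with CLE10 (SD, n = 3 each), a log2 fold change of 0.12 ± 0.21 with a 95% interval from -0.35 to 0.59. Without CLE10 replicate 2 the value was -0.07.

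XTH21 is known to be needed for normal growth of the primary root. It had 933, 858 and 788 with CLE25, against 740.1, 889 and 730.4 with CLE10. A single CLE10 array, replicate 2, lay above the lower CLE25 arrays, so the groups overlapped through that array. The mean was 859 ± 72.3 with CLE25 and 786 ± 88.7 with CLE10 (SD, n = 3 each), a log2 fold change of 0.13 ± 0.12 with a 95% interval from -0.13 to 0.39. Leaving out any array kept it above 0, between 0.07 and 0.22.

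XTH16, of the large subfamily that acts mainly as transglucosylases, had 1082, 736 and 1126.5 with CLE25, against 945, 833 and 969.9 with CLE10. Its lowest arrays were again those numbered 2, and the CLE10 arrays lay inside the range of the CLE25 arrays. The mean was 981 ± 214 with CLE25 and 916 ± 72.9 with CLE10 (SD, n = 3 each), a log2 fold change of 0.08 ± 0.15 with a 95% interval from -0.26 to 0.41. The sign turned without CLE25 replicate 1, to -0.0056, and without CLE25 replicate 3, to -0.03.

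XTH26 is known from root hairs, where its enzyme works in the wall of the growing hair and of nearby elongating cells. It had signals of 1173, 929 and 2737 with CLE25, against 1371, 676 and 1815 with CLE10. In both groups the array numbered 2 was the lowest and the array numbered 3 the highest. The mean was 1613 ± 981 with CLE25 and 1287 ± 574 with CLE10 (SD, n = 3 each). The log2 fold change of 0.27 ± 0.38 had the widest 95% interval of the members, from -0.56 to 1.11, so a difference of 2-fold higher with CLE25 lies inside it. The sign turned without CLE10 replicate 2, to -0.13, and without CLE25 replicate 3, to -0.19.

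XTH32 belongs to the small subfamily of the XTH enzymes that is noted for hydrolase activity. It had 269.8, 312 and 447 with CLE25, against 364, 298 and 326 with CLE10. The CLE10 arrays lay within the range of the CLE25 arrays, whose highest was replicate 3. The mean was 343 ± 92.5 with CLE25 and 329 ± 33.2 with CLE10 (SD, n = 3 each), and the log2 fold change of 0.03 ± 0.18 had a 95% interval from -0.36 to 0.42. The sign turned with array weights, to -0.03, without CLE10 replicate 2, to -0.04, and without CLE25 replicate 3, to -0.17.

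XTH33 is known as an XTH held at the plasma membrane. It had 335, 172 and 312 with CLE25, against 235, 149 and 183 with CLE10. CLE25 replicates 1 and 3 lay above all CLE10 arrays, while CLE25 replicate 2 lay below CLE10 replicates 1 and 3. The mean was 273 ± 88.1 with CLE25 and 189 ± 43.4 with CLE10 (SD, n = 3 each). The log2 fold change of 0.49 ± 0.24 had a 95% interval from -0.05 to 1.02 and did not pass (limma adjusted p = 0.999). It was above 0 on leaving out any array, from 0.31 to 0.78, and without CLE25 replicate 2 it was 0.78.

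**Figure D2:**
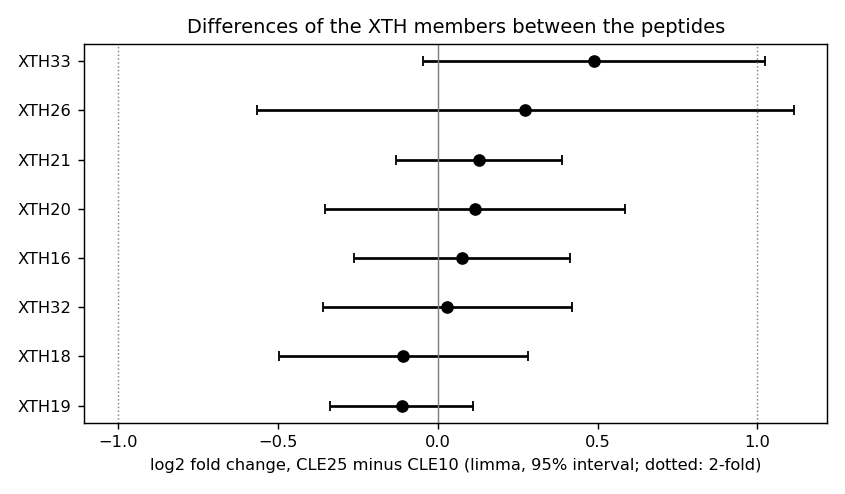
Log2 fold change of CLE25 minus CLE10 for the 8 XTH members from limma, with 95% intervals as bars and dotted lines at 2-fold either way. Every interval includes 0, and those of XTH26 and XTH33 pass the line at 2-fold higher with CLE25.

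Each 95% interval, taken for 1 member alone, gives a range for its difference that rests on the spread between these arrays. For 6 of the 8 members the 95% interval lay inside 2-fold either way, beside 98.7% of all probe sets tested, and for 5 it lay inside 1.5-fold, beside 81.5%. XTH26 and XTH33 were the members whose interval reached past 2-fold. The upper bound was 2.16 times higher with CLE25 for XTH26 and 2.03 times for XTH33.

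As a group, 6 of the 8 members had a log2 fold change above 0, beside 49.4% of all probe sets, and the median was 0.10, beside -0.0024. The count was 3 of 8 without CLE10 replicate 2 and also 3 of 8 without CLE25 replicate 3. With CLE10 replicate 2 left out the median was -0.04, and with CLE25 replicate 3 left out it was -0.05. The direction of the group thus rested on these arrays.

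**Figure D3:**
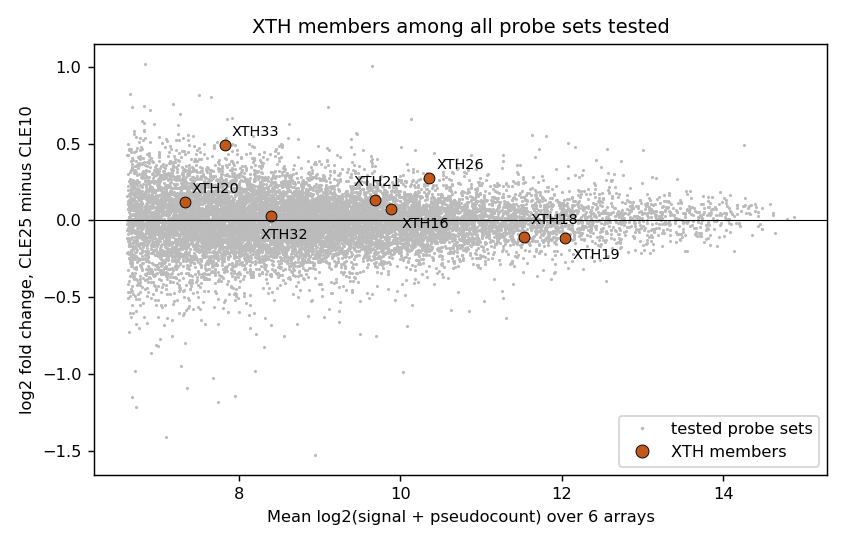
Log2 fold change of CLE25 minus CLE10 against the mean log2 signal over the 6 arrays, for the 13648 probe sets tested (grey) and the 8 XTH members (orange). The members run from -0.11 for XTH19 to 0.49 for XTH33, within the range of all probe sets, -1.53 to 1.02.

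Arrays of the same peptide differed more in several XTH genes than in most probe sets. The within-group SD of the log2 signal had a median of 0.30 over the 8 members and 0.16 over all probe sets tested. XTH26 had an SD of 0.77, larger than that of 99.8% of all probe sets and of 99.9% of the 1000 probe sets nearest to it in mean signal. XTH33, at 0.43, and XTH18, at 0.32, stood above 97.6% and 95.6% of the 1000 nearest to each of them. XTH19, at 0.11, and XTH21, at 0.14, stood above 43.0% and 52.0% of theirs. The spread was thus uneven inside the family, from XTH19 and XTH21, near the middle for their signal, to XTH26.

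Part of this spread followed the replicate numbers, whose meaning the labels do not give. The arrays numbered 2 were the lowest of both peptides for 4 of 8 members, XTH16, XTH20, XTH26 and XTH33, beside 10.5% of all probe sets. The arrays numbered 3 were the highest of both peptides for 4 of 8, XTH16, XTH18, XTH20 and XTH26, beside 12.7%. For XTH19 and XTH21 the arrays numbered 3 were the lowest of both, as for 16.7% of all probe sets. These positions were looked at after the values had been seen, and they are given with no test.

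For XTH26 the array numbered 3 had 2.95 times the signal of the array numbered 2 with CLE25 and 2.69 times with CLE10. A ratio of at least 2 in both groups was seen in 6 of the 13648 probe sets, or 0.044%, and XTH26 was 1 of them. The reverse, number 2 at least 2 times number 3 in both groups, was seen in 4, or 0.029%. The ratio of number 3 to number 2 was 1.46 with CLE25 and 1.45 with CLE10 for XTH18. For XTH20 it was 1.48 with CLE25 and 1.58 with CLE10. It was 0.928 with CLE25 and 0.831 with CLE10 for XTH19.

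**Figure D4:**
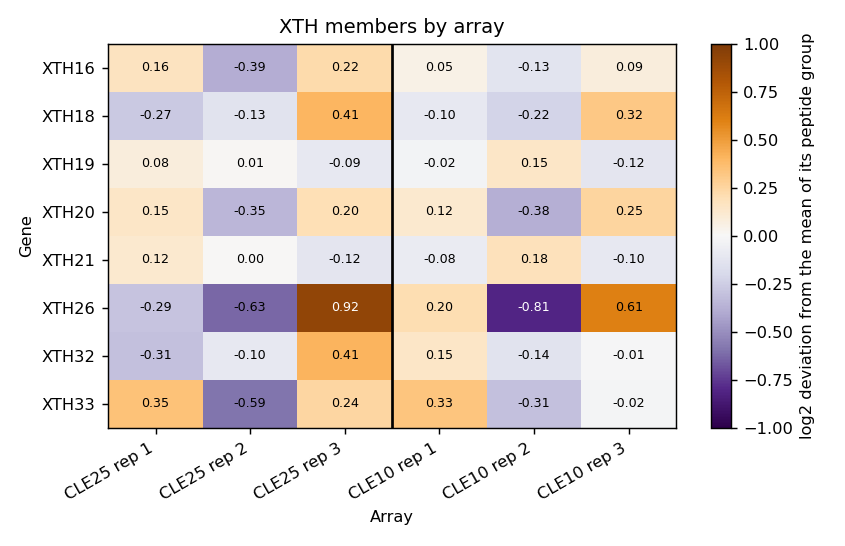
Log2 deviation of each array from the mean of its peptide group, for the 8 XTH members (rows) and the 6 arrays (columns, CLE25 left of CLE10); orange is above and purple below the group mean. XTH26 runs from -0.81 on CLE10 replicate 2 to 0.92 on CLE25 replicate 3, while XTH19 and XTH21 reach at most 0.18 from 0.

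Root hair genes varied across the arrays in the same order as XTH26. Of 7 root hair markers 2 had a probe set here, the expansins EXPA7 and EXPA18, which loosen the wall of the growing hair. EXPA7 had 1746, 1369.7 and 2596 with CLE25, against 1569, 1325 and 1799 with CLE10. EXPA18 had 2992, 2615 and 4049 with CLE25, against 2887, 2635 and 3204 with CLE10. For both, as for XTH26, the array numbered 2 was the lowest and the array numbered 3 the highest of each peptide.

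This full order, with the array numbered 1 between the others in both groups, was seen in XTH16, XTH20 and XTH26 among the members and in 3.53% of all probe sets. The summed signal of the root hair pair was 3985 to 6645 with CLE25 and 3959.6 to 5003 with CLE10, and neither gene was at 0 on any array. COBL9, LRX1, RSL4, RHD6 and PRP3 of that list were not analysed here. The part of root hair content in the XTH26 values was not tested.

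**Figure D5:**
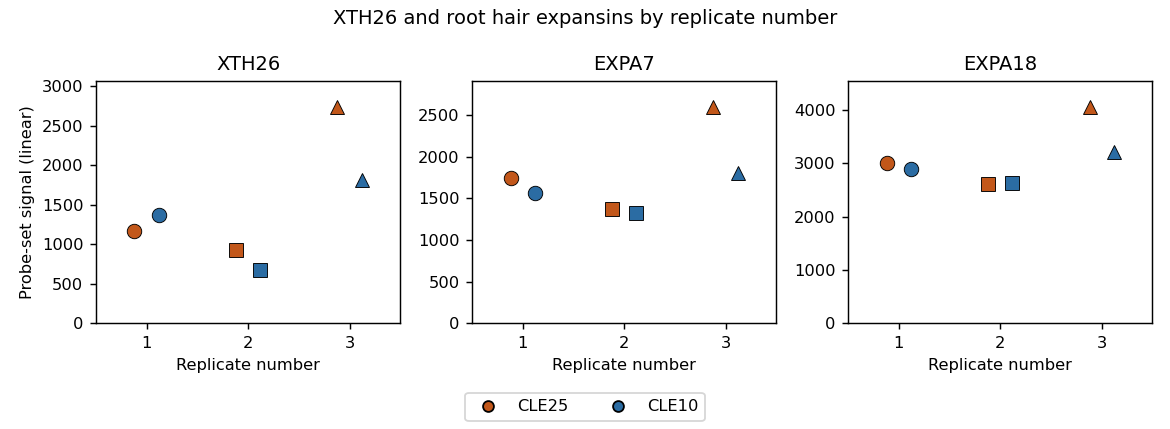
Probe-set signal on a linear scale against replicate number for XTH26 and the root hair expansins EXPA7 and EXPA18, with CLE25 (orange) left of CLE10 (blue) at each number. In all 3 genes the arrays numbered 2 are the lowest of each peptide and those numbered 3 the highest, with XTH26 at 929 and 2737 with CLE25 and at 676 and 1815 with CLE10.

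Outside the rule, 2 more XTH probe sets could be read. XTH27, listed on the array as EXGT-A3, is known to be needed for water-conducting cells of leaf veins. It had 1333, 1010.1 and 1278 with CLE25, against 1213, 1043 and 1203 with CLE10, and the arrays numbered 2 were again the lowest. Its log2 fold change was 0.06 ± 0.12 with a 95% interval from -0.21 to 0.33 in the fit with no filter on dim probe sets. XTH29 lay between 3.05 and 47.9 with CLE25 and between 15.5 and 40.8 with CLE10, too dim to read a difference.

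Genes that build xyloglucan did not pass either. Of 14 synthesis genes 5 could be tested, all of them CSLC glucan synthases, which make the glucan backbone that XTH enzymes later cut. Of these 0 passed in limma (0 at an unadjusted p under 0.05), 1 was higher and 4 were lower with CLE25, and the median log2 fold change was -0.03. The values ran from -0.29 ± 0.28 for CSLC12 to 0.05 ± 0.16 for CSLC8. The count changed on leaving out single arrays. It was 3 higher and 2 lower without CLE25 replicate 1, where CSLC12 turned to 0.07, and also without CLE10 replicate 2. It was 2 higher and 3 lower without CLE25 replicate 3. The 3 xyloglucan trimming enzymes of the list were not analysed here.

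Among the alpha-expansins, wall-loosening proteins that act beside XTH enzymes, 6 of the 19 on the list used were tested. The arrays had a probe set of its own for 10 EXPA genes, and 8 of them were on that list. EXPA genes outside the list were not looked at. On that list EXPA8 and EXPA16 fell under the signal filter and were not tested. The mean signal of EXPA8 was 30.5 with CLE25 and 54.0 with CLE10, and that of EXPA16 was 23.4 with CLE25 and 17.9 with CLE10. All 6 tested had values above 0, beside 49.4% of all probe sets, with a median of 0.18. The values ran from 0.0071 ± 0.14 for EXPA20 to 0.74 ± 0.26 for EXPA15. Of these 0 passed in limma (1, EXPA15, at an unadjusted p under 0.05). The EXPA15 value was 0.36 without CLE10 replicate 1, the array where its signal was lowest. Without CLE25 replicate 3, the array on which EXPA7 and EXPA18 were highest, 2 of 6 were above 0, EXPA15 and EXPA4, and the median was -0.02. COB, which guides cellulose deposition and was the only gene tested of 10 for primary wall cellulose, had -0.03 ± 0.10. The touch-inducible genes related in response to XTH22 were not analysed here. Whether the XTH members differed from these lists was not tested.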

How the data were processed

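Total RNA of 6 root tip samples, 3 with CLE25 and 3 with CLE10, was labelled with biotin and hybridised to 1-colour arrays, per the labels' protocols. The deposited values are intensity values, a linear probe-set signal per array. The submitters' processing notes name GCOS 1.4, whose settings are not given in the sources at hand. The trimmed mean was 500.05 on all arrays, so a global scaling had been applied, which would mask a shift shared by all transcripts. For arrays, their number limits the precision.

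Values were used as log2(signal + 6.06), the 10th percentile. Of 22810 probe sets, 64 controls were left out. Of the rest 13513 named 1 gene, 503 several and 8730 none, and several or none were given no name. The 40th percentile of mean log2 signal (6.62, a signal near 92.3) left 13648, and all 8 members passed it. The groups were compared by limma 3.58.1 in R 4.3.3 (lmFit, eBayes with trend, no replicate block), with Benjamini-Hochberg adjustment over all 13648 and a threshold of 0.05. Of the scripts, only the limma fit was tested on simulated data. The noise there was independent between arrays, and the pseudocount, the filter and the alternatives were not part of that test. Names follow the TAIR10.1 gene table. No coordinates or sequences are given, because no genome build is stated for the probe sets and no sequence table was at hand. The members and lists were chosen with earlier results of these data known. The rule was to name every XTH member and other XTH probe set, and of the other lists the genes with the highest and lowest value. EXPA8 and EXPA16 were named besides, as listed expansins under the filter. The root hair pair, the replicate positions and XTH27 as an added member were chosen after their values were seen. Alternatives were another pseudocount, other filters, no trend, quantile normalization, array weights, a replicate block and leaving out each array.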

Additional observations from a re-analysis of the deposited data

How the results depend on the processing

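No XTH member was called under any of the alternatives run, leaving out each array included (0 to 0 of 8). The number of members above 0, 6 here, ran from 3 to 7 on leaving out an array, and the median from -0.05 to 0.20. The number of probe sets called in all was 0 to 0 on leaving out an array. On leaving out an array the value ran from -0.035 to 0.27 for XTH16, from -0.31 to 0.052 for XTH18, from -0.073 to 0.29 for XTH20, from -0.19 to 0.59 for XTH26 and from -0.17 to 0.18 for XTH32. With array weights XTH32 was -0.025. XTH19, XTH21 and XTH33 kept their sign in every alternative that kept their probe sets. The filters, the variance trend and the replicate block leave a log2 fold change as it is, so they could not turn a sign. Only the other pseudocount, quantile normalization, array weights and leaving out an array could have done so. The filter at the 60th percentile dropped XTH20 and XTH33. The causes were not tested.

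The deviations of same-numbered arrays from their group means correlated at 0.076, 0.136 and 0.221, and every array was closest to its own number in the other group, a hint from the data. The meaning of the numbers is not in the labels and 1 correlation was low, so no pairing was assumed. At every replicate number XTH18 and XTH19 were lower with CLE25, and XTH20 and XTH33 were higher. For XTH16, XTH21, XTH26 and XTH32 the direction differed between the numbers. These directions were looked at after the values had been seen and were not tested. With a replicate block limma called 1 probe set in all and 0 members. The values of the members were the same, as they must be when each number occurs once in each group. The standard error was then 0.14 for XTH26 (0.38 without the block) and 0.15 for XTH33 (0.24 without it), with limma adjusted p of 0.833 for XTH26 and 0.748 for XTH33. At an unadjusted p under 0.05 the block gave 1 of 8 members, XTH33 (0.00969, against 0.0698 without it), and 814 of all probe sets, against 575. Over all alternatives the limma adjusted p of XTH33 was 0.613 at the lowest, without CLE25 replicate 2, and 0.9999995 at the highest, without CLE25 replicate 3. Dim signal limits XTH29.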

Other observations

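The probe sets with at least 2 times as much signal on the array numbered 3 as on the array numbered 2, with CLE25 and with CLE10, were chosen after their values were seen, and they are given with no test. Besides XTH26 there were 5. PRA1.G1 (AT1G55640), of a family of prenylated RAB acceptors, had 109, 94.3 and 202 on CLE25 replicates 1, 2 and 3, against 84.1, 30.6 and 125 on CLE10 replicates 1, 2 and 3. AT3G18450 had 311, 76.1 and 199 with CLE25, against 182, 118 and 327 with CLE10. The other 3 have no gene name here, and 1 of them had 2235, 2052 and 4750.2 with CLE25, against 2822, 1782 and 3766 with CLE10. Another had 551, 193 and 653 with CLE25, against 438, 355 and 793 with CLE10. The last had 316, 671 and 1375 with CLE25, against 1119, 284 and 869 with CLE10. Its arrays numbered 1 were thus the lowest with CLE25 and the highest with CLE10.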
